A study of Mus musculus with 12 samples.

Results

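Cells that receive an FGF signal pass it through RAS, RAF, MEK and ERK, and they switch on a small set of genes that report the signal and damp it. The 10 genes described here are Dusp4, Dusp6, Spry2, Spry4, Spred1, Etv4, Etv5, Egr1, Fos and Fgf4, a list of known feedback and immediate targets of FGF-ERK signalling. They were named for these roles, and earlier results of these data were known when the list was drawn up. All 10 were found by symbol among the 26061 genes of the deposited expression table. Phosphatases of the DUSP family take the activating phosphates off ERK, Sprouty and Spred proteins block the route from the receptor to RAF, and the ETS factors Etv4 and Etv5 carry the signal to transcription. Mouse embryonic stem cells (ESCs) make the ligand Fgf4 themselves, and this autocrine loop is known for moving them towards differentiation. The 2i medium holds a MEK inhibitor, which blocks the step just above ERK.

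RNA-seq was done on polyA RNA from 12 libraries, 3 in each of 4 groups. Every group was a Tet2 KO ESC line, made by targeting exon 14 of Tet2, that was stably rescued with a PiggyBac construct for either WT TET2 or a catalytically inactive mutant TET2, a dioxygenase that oxidises methylated cytosine. Every group also carried a lentiviral shRNA against Setdb1, a histone H3K9 methyltransferase, with 1 µg/ml puromycin from 48 h after infection and collection after 3 days of selection. Each rescue line was grown as primed ESCs in serum with LIF (15% serum and 1000 U/ml LIF) or as naïve ESCs in 2i (N2, B27, LIF, the MEK inhibitor PD0325901 and the GSK3 inhibitor CHIR99021). The 4 groups are therefore naïve WT, naïve mutant, primed WT and primed mutant, all depleted of SETDB1, and libraries with another shRNA or with no rescue were not analysed here. No source says that the 3 replicates were separate cultures, so p-values measure only the spread between these libraries, which may be technical. In bulk RNA, fewer cells with a transcript and less of it per cell cannot be told apart.

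Libraries held between 8066662 and 21335933 reads in genes. Setdb1, the target of the shRNA, had between 114 and 585 reads per library, a check with no untargeted library beside it. Tet2 RNA, which includes that from the rescue construct, averaged 10610 ± 5078 normalised reads (SD, n = 3) in naïve WT and 2402 ± 1318 in naïve mutant, and 29323 ± 5214 in primed WT and 8335 ± 2244 in primed mutant. All 9 pluripotency markers had reads in every group, and their sum lay between 40261 and 53651 normalised reads. Among markers of other cells, fibroblast genes summed to between 32.0 and 90.5 normalised reads in naïve and between 13.2 and 19.4 in primed libraries, with Col1a2, Col3a1 and Postn at 0 in every library. Thy1 of that list was higher in naïve cells in both lines (0.85, limma adjusted p = 0.00474, and 1.40, 9.34e-05, on the deposited log2 scale).

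The bases before the transcription start are shown for 4 of the genes that stand at different ends of the response to the medium, together with short motifs known from such promoters. The 250 bases before each start come from a set of RefSeq promoters (build GRCm38.p6, plus strand for all 4). The set used here had entries for 6 of the 10 genes, namely Dusp6, Spry2, Spred1, Etv5, Fos and Fgf4, and none for Dusp4, Spry4, Etv4 or Egr1. Capitals mark matches, on either strand, to TGACG (the core of a cAMP response element), TATAAA (the element bound by TBP) and GGGCGG (a site of SP1). CCGGAA (an ETS site) and the CArG box bound by SRF were searched too. None of the matches overlapped another. Dusp6 (chr10:99262981-99263230) was among the genes with the largest differences between media, Spred1 (chr2:117120821-117121070) had an intermediate one, Fos (chr12:85473640-85473889) had few reads in either medium, and Fgf4 (chr7:144861136-144861385) was the ligand gene with slightly more RNA in naïve cells.
Dusp6: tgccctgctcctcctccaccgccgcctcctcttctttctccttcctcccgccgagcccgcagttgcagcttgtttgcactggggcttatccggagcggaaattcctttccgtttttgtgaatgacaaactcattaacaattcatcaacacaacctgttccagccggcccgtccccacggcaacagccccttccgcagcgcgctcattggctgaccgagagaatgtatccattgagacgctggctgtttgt
Spred1: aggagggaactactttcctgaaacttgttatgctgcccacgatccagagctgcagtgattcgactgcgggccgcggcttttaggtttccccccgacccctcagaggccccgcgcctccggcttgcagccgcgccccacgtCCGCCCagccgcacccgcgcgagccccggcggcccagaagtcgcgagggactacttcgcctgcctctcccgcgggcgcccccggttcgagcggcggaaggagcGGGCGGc
Fos: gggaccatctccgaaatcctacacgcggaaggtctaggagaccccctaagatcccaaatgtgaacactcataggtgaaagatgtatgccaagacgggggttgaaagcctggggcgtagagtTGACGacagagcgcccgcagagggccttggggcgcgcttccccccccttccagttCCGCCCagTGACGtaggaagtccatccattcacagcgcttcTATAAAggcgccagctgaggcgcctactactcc
Fgf4: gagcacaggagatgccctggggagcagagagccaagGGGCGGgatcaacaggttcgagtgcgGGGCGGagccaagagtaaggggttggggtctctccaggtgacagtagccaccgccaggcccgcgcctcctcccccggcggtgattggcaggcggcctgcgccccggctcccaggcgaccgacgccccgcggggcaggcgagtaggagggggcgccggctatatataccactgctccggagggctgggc

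Fos held 4 matches in this window, TGACG at positions -129 and -66 from the start, GGGCGG at -74 and TATAAA at -33. Spred1 held GGGCGG at -110 and -7, and Fgf4 held it at -214 and -188. The Dusp6 window held no match to any of the 5 motifs, which says only that these letters are not in it. Of 32851 RefSeq promoter windows, 32.7% held GGGCGG, 17.8% TGACG, 12.4% TATAAA, 12% CCGGAA and 1.47% a CArG box. A match here is a description of letters and not of binding.

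To ask how the genes differed between the media, naïve libraries were compared with primed libraries within each rescue line. Both lines had less RNA from nearly the whole list in naïve cells. In the WT line 9 of 10 genes fell in naïve cells and none rose, against 17.3% of all 14185 tested genes that were lower and 18.6% that were higher. In the mutant line 8 fell and Fgf4 rose, where 16.9% of all genes were lower and 18.3% higher. The 8 genes lower in both lines were Dusp4, Dusp6, Spry2, Spry4, Spred1, Etv4, Etv5 and Egr1, and 12.4% of all genes were lower in both and 13.7% higher. The median difference over the list was -2.06 in the WT line and -1.64 in the mutant line on the deposited log2 scale, where the median over all tested genes was 0.01 and -0.01. These calls are at an adjusted p under 0.05 (limma, Benjamini-Hochberg over all tested genes).

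**Figure D1:**
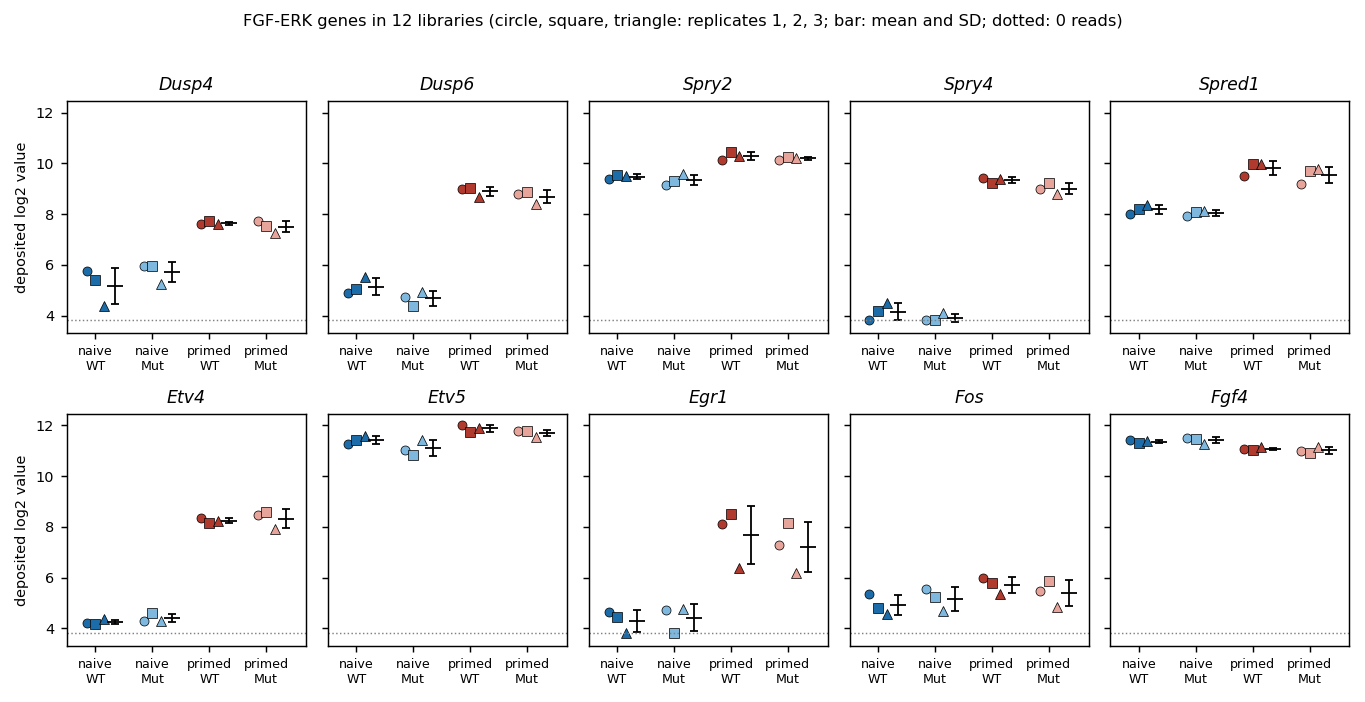
Deposited log2 value of each of the 10 genes (vertical axis) in the 12 libraries, grouped by medium and rescue line; circles, squares and triangles are replicates 1, 2 and 3, the bar beside them is the mean and SD of the 3, and the dotted line is the value of 0 reads. Spry4, Etv4 and Egr1 sit near that line in all naïve libraries and well above it in all primed ones, whereas Etv5 and Fgf4 stay between 10.83 and 12.02 throughout.

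All 10 genes passed the filter on low values, a mean over the 12 libraries that exceeded 3.81, the value of 0 reads, by 1 or more. Spry4, Etv4 and Egr1 passed it only through the primed libraries: their naïve means were 4.03, 4.33 and 4.37, so a gene of this kind had to differ to be tested. The counts of called genes above, and of genes without overlap below, include them. In the WT line 9 genes were lower in every naïve library than in any primed one, and Fgf4 was higher in every one, where 50% of all tested genes had groups that did not overlap and 24.5% were lower without overlap. In the mutant line 8 genes were lower without overlap, Fgf4 was higher without overlap and only Fos overlapped, where the shares over all genes were 43.5% in both directions and 21.2% lower.

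Of the phosphatase genes, Dusp6 encodes the cytoplasmic phosphatase that removes the activating phosphates of ERK. It lies on the plus strand of chromosome 10, 98725865 to 98730122 (mm9, as are all gene positions here). Naïve WT libraries held 8.18, 10.7 and 21.7 normalised reads, that is reads divided by the size factor of the library, and naïve mutant libraries held 5.92, 2.17 and 9.18. Primed WT libraries held 475, 493 and 383 normalised reads and primed mutant libraries 410, 444 and 307. No naïve library came near a primed one. The mean was 33.3-fold higher in primed than in naïve cells of the WT line and 67.3-fold higher in the mutant line, and the difference on the deposited log2 scale was -3.75 (SE 0.22, limma adjusted p = 7.05e-09) and -4.0 (SE 0.22, adjusted p = 4.20e-09). Only 29 of the tested genes, 0.204%, were lower by more than 3 in the WT line, and 22 genes, 0.155%, in the mutant line. Dusp6, Spry4 and Etv4 were among those in the WT line and in the mutant line, and Egr1 in the WT line. For Spry4, Etv4 and Egr1 this place is no support of its own, since they passed the filter only through the primed libraries.

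Dusp4, on chromosome 8 from 35870351 to 35882948, encodes the nuclear phosphatase of ERK. It held 29.2, 18.5 and 2.06 normalised reads in naïve WT and 37.2, 36.9 and 15.5 in naïve mutant, against 171, 182 and 166 in primed WT and 182, 159 and 126 in primed mutant. Replicate 3 was the lowest of its group in all 4 groups, and the third naïve WT library rested on 2 reads. The mean was 10.4-fold higher in primed WT and 5.21-fold higher in primed mutant cells, with log2 differences of -2.48 (SE 0.29, limma adjusted p = 7.82e-06) and -1.78 (SE 0.29, adjusted p = 0.000212).

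Spry4 encodes a Sprouty protein, one of the inhibitors that ERK signalling induces against RAS and RAF activation, and lies on chromosome 18. It had the largest difference of the list. The naïve WT libraries held 0, 1 and 3 reads in all and the naïve mutant libraries 0, 0 and 1, while the primed WT libraries held 444, 466 and 1200 reads and the primed mutant libraries 346, 526 and 395. The ratio of primed to naïve reads, set against library size, was 443 in the WT line (exact 95% interval 173 to 1627) and 1876 in the mutant line (336 to 74151), and these intervals cover counting error only. The log2 differences of -5.17 (SE 0.20, limma adjusted p = 6.36e-11) and -5.09 (SE 0.20, adjusted p = 1.63e-10) are smaller than those ratios because the deposited transformation compresses low counts.

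Spry2, the Sprouty gene on chromosome 14 from 106291166 to 106296036, kept much of its RNA in naïve cells. It held 634, 720 and 705 normalised reads in naïve WT and 544, 603 and 730 in naïve mutant, against 1098, 1348 and 1237 in primed WT and 1096, 1195 and 1161 in primed mutant. The groups did not overlap, but the fold was small beside that of Spry4, 1.79 in the WT line and 1.84 in the mutant line (log2 differences -0.81, limma adjusted p = 0.000573, and -0.86, adjusted p = 0.000374, SE 0.15 for both).

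Spred1, on chromosome 2 from 116947110 to 117008015, encodes a Sprouty-related protein that brings neurofibromin to the membrane to switch RAS off. It held 229, 267 and 297 normalised reads in naïve WT and 214, 244 and 249 in naïve mutant, against 690, 981 and 978 in primed WT and 549, 790 and 854 in primed mutant. Replicate 1 was the lowest of its group in all 4 groups. Primed cells had 3.34-fold more in the WT line and 3.10-fold more in the mutant line (log2 differences -1.63, limma adjusted p = 8.08e-06, and -1.51, adjusted p = 1.90e-05, SE 0.19 for both).

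Etv4 and Etv5 encode ETS transcription factors of the PEA3 family, whose transcripts are standard readouts of FGF signalling, and the pair behaved unlike each other. Etv4, on chromosome 11 from 101631056 to 101646685, had 1, 1 and 2 reads in the naïve WT libraries and 2, 4 and 3 in the naïve mutant libraries. The primed WT libraries held 201, 214 and 520 reads and the primed mutant libraries 235, 336 and 200. The ratio of primed to naïve reads was 196 in the WT line (exact 95% interval 76.4 to 722, counting error only) and 127 in the mutant line (66.5 to 278), and the log2 differences were -3.99 (SE 0.20, limma adjusted p = 9.64e-10) and -3.91 (SE 0.20, adjusted p = 2.28e-09).

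Etv5, on chromosome 16 from 22381382 to 22439792, kept most of its RNA in naïve cells. Its log2 values were 11.28, 11.42 and 11.59 in naïve WT and 11.04, 10.83 and 11.43 in naïve mutant, against 12.02, 11.75 and 11.90 in primed WT and 11.78, 11.77 and 11.55 in primed mutant. The naïve values lay below the primed values of their line, narrowly, and primed cells had 1.37-fold more in the WT line and 1.5-fold more in the mutant line. The log2 differences were -0.46 (95% interval -0.81 to -0.10, limma adjusted p = 0.0416) and -0.60 (-0.95 to -0.25, adjusted p = 0.0106). The WT call was lost without naïve WT replicate 1 (adjusted p = 0.129) or 2 (0.0860), without primed WT replicate 1 (0.158) or 3 (0.104), and with a replicate block (0.0729), and the mutant call without naïve mutant replicate 2 (0.0650).

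Egr1, a zinc finger factor transcribed within minutes of ERK activation, lies on chromosome 18 and overlaps the gene Gm17507. Reads of Gm17507 in the overlap cannot be separated from those of Egr1 in these non-directional libraries. Naïve WT libraries held 4, 3 and 0 reads and naïve mutant libraries 7, 0 and 11. Primed WT libraries held 253, 336 and 57.8 normalised reads and primed mutant libraries 129, 255 and 47.7. Every primed library was above every naïve one, but the primed level spread widely, and replicate 3 was the lowest of its group in both primed groups. Log2 differences were -3.37 (95% interval -4.42 to -2.33, limma adjusted p = 7.47e-05) and -2.77 (-3.82 to -1.73, adjusted p = 0.000474). Without replicate 3 of both media, an alternative chosen after its values were seen, they were -3.77 and -3.45.

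Fos, on chromosome 12 from 86814840 to 86818223, encodes a subunit of the AP-1 factor and is the textbook immediate early gene. It had few reads everywhere: 15, 7 and 4 in naïve WT, 28, 14 and 9 in naïve mutant, 26, 26 and 34 in primed WT and 15, 31 and 7 in primed mutant. Replicate 3 was again the lowest of its group in all 4 groups on the log2 scale, and in the mutant line the naïve and primed groups overlapped. Fos fell in naïve cells of the WT line, by 0.81 on the log2 scale (95% interval -1.42 to -0.20, limma adjusted p = 0.0384). In the mutant line its difference was -0.22 (-0.83 to 0.39, adjusted p = 0.584), and it stood at 0.024 without naïve mutant replicate 3 and 0.013 without primed mutant replicate 2. The WT call was lost without naïve WT replicate 2 (adjusted p = 0.0999) or 3 (0.127), without primed WT replicate 1 (0.144) or 2 (0.0918), and with limma-voom on the recovered reads (0.0688). The difference between the lines in the Fos response was -0.59 (-1.45 to 0.28, adjusted p = 0.976).

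Fgf4, the ligand at the head of the loop, lies on chromosome 7 from 152047291 to 152051148 and was the only gene of the list with more RNA in naïve cells. Its log2 values were 11.42, 11.30 and 11.37 in naïve WT and 11.49, 11.47 and 11.27 in naïve mutant, against 11.08, 11.05 and 11.13 in primed WT and 11.01, 10.90 and 11.17 in primed mutant. Naïve libraries were above the primed libraries of their line in both lines, by a small margin. It rose in naïve cells of the mutant line, by 0.39 (95% interval 0.10 to 0.67, limma adjusted p = 0.0355), and its difference in the WT line was 0.28 (-0.01 to 0.56, adjusted p = 0.119). Naïve cells had 1.31-fold and 1.22-fold more, respectively. The mutant call was lost without naïve mutant replicate 1 (adjusted p = 0.117) or 2 (0.104), without primed mutant replicate 1 (0.0700) or 2 (0.147), with each library centred on its median (0.0561), and with a replicate block (0.0876).

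**Figure D2:**
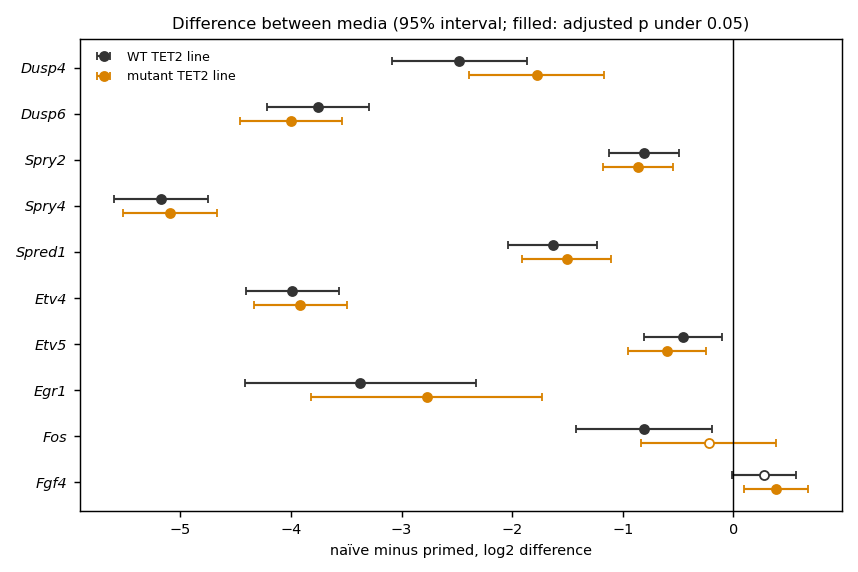
Naïve minus primed difference of each gene on the deposited log2 scale (horizontal axis) in the WT line (black) and the mutant line (orange), with 95% intervals; filled points have an adjusted p under 0.05. The differences run from -5.17 for Spry4 to 0.39 for Fgf4, and the intervals of the 2 lines overlap for every gene.

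Set side by side per length, as RPKM computed from the recovered reads and the exons of each gene, the list was led by the same 3 genes in both media. In primed WT cells Etv5 stood at 78.9 ± 7.6 (SD, n = 3), Fgf4 at 60.8 ± 3.3 and Spry2 at 50.5 ± 5.5. Below them came Dusp6 at 13.8 ± 1.5, Spry4 at 11.5 ± 1.0 and Spred1 at 11.2 ± 2.3, neighbours whose differences lay within or close to their spread. Etv4 at 7.64 ± 0.53, Egr1 at 5.91 ± 3.86 and Dusp4 at 5.41 ± 0.20 followed, the latter pair again within the spread of Egr1, and Fos was lowest at 1.06 ± 0.35. In naïve WT cells Fgf4 led at 71.4 ± 4.0, Etv5 stood at 55.3 ± 4.6 and Spry2 at 27.3 ± 1.4. Spred1 followed at 3.22 ± 0.34, and the other 6 lay between 0.024 for Spry4 and 0.509 for Dusp4. The 3 genes with the most RNA in primed WT cells had differences between media under 1 on the log2 scale, as did Fos. The order of the lowest genes in naïve cells cannot be read, since Spry4 and Etv4 rested on 4 reads each in naïve WT libraries.

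The rest of the pathway was read from lists of its parts. Their differences are given as naïve minus primed on the deposited log2 scale, in the WT line and then in the mutant line, each with its limma adjusted p. Members of these lists beyond the 4 largest differences were named after their values were seen. The counts of each list stand beside 12.4% of all tested genes that were lower in both lines and 13.7% that were higher, and 1 gene of 9 or 1 of 7 is near those shares. Among other feedback inhibitors, 9 of 11 were tested, 5 were lower in naïve cells in both lines and 1 was higher. Dusp9, another ERK phosphatase, fell (-1.77, limma adjusted p = 9.07e-06, and -1.08, 0.000872). Spred2 fell (-1.36, 9.60e-05, and -1.02, 0.00119), and so did Spred3 (-1.53, 0.000919, and -1.14, 0.00749), both Spred1 relatives, the mutant call of Spred3 being lost without naïve mutant replicate 1 (0.0523). Spred3 averaged 4.51 and 8.89 normalised reads in naïve WT and mutant cells and passed the filter only through the primed libraries. It had to differ to be tested, and the 5 lower genes include it. The phosphatase genes Dusp5 (-1.04 and -0.63) and Dusp7 (-0.84 and -0.55) were the others that fell. Dusp1, a nuclear phosphatase that also acts on the stress kinases p38 and JNK, rose by 1.18 (0.000304) and 1.91 (3.16e-06). It held 1100 normalised reads in naïve WT against 456 in primed WT, and 1122 against 277 in the mutant line.

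Other ERK targets, 9 of 10 tested, had 5 lower and 1 higher in both lines. Etv1, the remaining PEA3 factor, fell (-2.10, limma adjusted p = 0.000181, and -2.49, 3.77e-05), between Etv4 and Etv5. Myc, a proliferation factor, fell (-2.51, 4.01e-06, and -2.83, 1.25e-06), and so did Plaur, the urokinase receptor gene (-0.98, 0.00192, and -0.93, 0.00289). Plaur averaged 2.77 and 6.26 normalised reads in naïve WT and mutant cells and passed the filter only through the primed libraries. It had to differ to be tested, and the 5 lower genes include it. Phlda1 (-0.92 and -0.71) and Ier3 (-0.61 and -0.68) were the others that fell. The Epha4 receptor gene was higher by 0.81 (0.0296) and 0.86 (0.0225), calls that were lost without naïve WT replicate 1 (0.0703) or 3 (0.0963), primed WT replicate 2 (0.135), naïve mutant replicate 1 (0.0617) or 3 (0.0605), and primed mutant replicate 1 (0.113) or 2 (0.0859).

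Other immediate early genes, 7 of 12 tested, had 4 lower and 1 higher in both lines. Nr4a1, an orphan nuclear receptor gene, fell (-1.60, limma adjusted p = 7.29e-06, and -0.63, 0.0147), the latter call lost without either of replicates 1 and 2 of naïve mutant (0.0514 and 0.0581) or of primed mutant (0.0538 and 0.0719). The AP-1 subunit gene Jun fell (-1.35, 0.000269, and -0.88, 0.00703), and so did Ier2 (-1.04, 0.00227, and -1.11, 0.00151). Ier5 rose by 0.64 (0.0235) and 0.88 (0.00385). Jund fell (-1.16, 0.00431, and -0.94, 0.0161), the mutant call being lost without naïve mutant replicate 1 (0.102) or primed mutant replicate 1 (0.0691) or 2 (0.0583), and the WT call without replicate 3 of both media (0.0735). Of SRF and its ternary complex partners, Srf itself fell (-1.19, 0.000431, and -0.99, 0.00188), and none of the other 3 was called in both lines.

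Upstream of ERK the picture was mixed. Of the receptor list, 5 of 6 were tested, and Fgfr2 fell (-2.37, limma adjusted p = 5.64e-06, and -1.48, 0.000514) and so did Fgfr1, a main FGF receptor of ESCs (-1.22, 3.38e-05, and -0.84, 0.00105). Fgfrl1, a receptor without a kinase domain, rose by 1.35 in both lines (4.83e-05 and 5.21e-05). Only 3 of 17 other FGF ligand genes had enough reads to be tested, of which Fgf10 rose by 1.33 (0.00313) and 1.86 (0.000235) and Fgf3 by 0.98 (0.00116) and 0.53 (0.0467). Fgf10 averaged 7.01 and 4.26 normalised reads in primed WT and mutant cells. It passed the filter only through the naïve libraries, so it had to differ to be tested. The mutant call of Fgf3 was lost without naïve mutant replicate 1 (0.155) or 2 (0.125) and primed mutant replicate 2 (0.208) or 3 (0.0613). It was lost too with no filter (0.0686), median centring (0.0650), quantile normalization (0.0808) and a replicate block (0.0601). So it was with limma-voom on the recovered reads (0.0582) and with the libraries of the contrast alone (0.0797).

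Among 13 adaptors and RAS genes, 2 were lower in both lines and none higher, near the 12.4% of all tested genes that were lower. These were Gab1, a docking protein gene (-0.90 in each line, limma adjusted p = 0.000456 and 0.000478), and Ptpn11, which encodes SHP2 (-0.69, 0.00321, and -0.57, 0.0105), the latter call lost without naïve mutant replicate 2 (0.0606) or primed mutant replicate 2 (0.0566). Of 12 tested kinase genes of the RAF, MEK, ERK and RSK families, none was lower in both lines and 2 were higher, near the 13.7% of all tested genes, namely Braf by 1.02 (0.00169) and 0.79 (0.00965) and Rps6ka2 by 0.63 (0.0109) and 0.76 (0.00356). The Braf call in the mutant line was lost without primed mutant replicate 1 (0.0513). The median difference of the kinase list was -0.06 and -0.15, that of the other feedback inhibitors -0.84 and -0.55, and that of the other immediate early genes -1.04 and -0.63, in the WT and the mutant line.

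**Figure D3:**
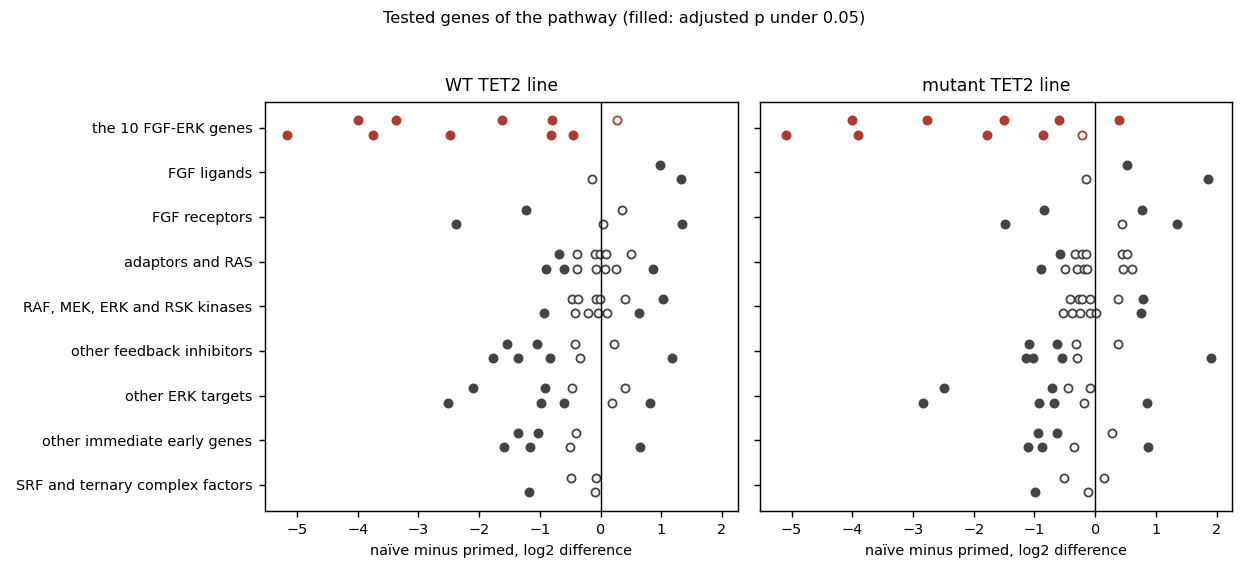
Naïve minus primed difference on the deposited log2 scale (horizontal axis, shared by both panels) of every tested gene in the list of 10 (red) and in the 8 other pathway lists (grey), in the WT line (left) and the mutant line (right); filled points have an adjusted p under 0.05. The red points reach furthest to the left, among them Spry4, Etv4 and Egr1, which passed the filter only through the primed libraries. The kinase list lies around 0, with medians of -0.06 and -0.15.

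Other programmes moved with the medium too. Their counts stand beside 12.4% of all tested genes that were lower in both lines and 13.7% that were higher. The 2i medium differs from serum in the MEK inhibitor, the GSK3 inhibitor, the basal medium and the absence of serum at once, so their shares in any of these differences cannot be told apart. Of 6 Wnt target genes, which GSK3 inhibition is known to raise, 5 rose in naïve cells in both lines (Axin2, Lef1, Sp5, Cdx1 and Tcf7), and the sum of the 6 was 1431 to 2955 normalised reads in naïve libraries and 597 to 817 in primed libraries. Of 9 SRF and YAP target genes known to respond to serum, 5 were tested and 3 were lower in naïve cells in both lines (Cyr61, Ctgf and Myl9). Heat shock and dissociation stress genes, some of which are switched on like Fos and Egr1 when cells are handled, were lower in sum in every naïve library than in any primed library of the same line, 5611 to 10448 against 10567 to 11616 normalised reads in the WT line and 4843 to 7780 against 9187 to 9745 in the mutant line. Of these 6 genes Hspb1, Hspa1a and Hspa1b were called lower in naïve cells of the WT line and Hsph1 in the mutant line, and Atf3 was higher in both lines. Of all tested genes 17.3% were lower in the WT line and 16.9% in the mutant line, and 1 gene of 6 is near such shares. The neural markers Tubb3, Pax6 and Neurog2 summed to 567 to 999 normalised reads in naïve libraries and 1960 to 2612 in primed ones, with Neurog2 at 0 in both WT groups, and Tubb3 and Pax6 were lower in naïve cells in both lines. Mesoderm markers (4 genes) summed to 33.9 to 45.4 in naïve and 107 to 166 in primed libraries, with Mesp1 at 0 in naïve WT, and Eomes was lower in naïve cells in both lines. Trophoblast markers (4 genes) summed to 6.82 to 39.1 in naïve and 24.4 to 102 in primed libraries, with Elf5 at 0 in both naïve groups. Primitive endoderm markers (5 genes) lay between 19.6 and 71.3 in all. The part of these programmes in the fall of the 10 genes was not tested.

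To ask whether the catalytic activity of TET2 went with a difference in these genes, the WT line was compared with the mutant line within each medium. The lines also differed in Tet2 RNA, WT minus mutant, by 2.16 (limma adjusted p = 0.0154) in naïve and 1.84 (0.0297) in primed cells. Catalytic activity and Tet2 RNA level therefore cannot be told apart in this comparison, though the paper reports similar TET2 protein in both lines by western blot. No gene of the list was called in either medium (limma, adjusted p under 0.05), and none had an unadjusted p under 0.05, where 14 of the 14185 tested genes (0.0987%) were called in naïve cells and 36 (0.254%) in primed cells. At an unadjusted p under 0.05 there were 1882 (13.3%) and 2295 (16.2%) of the tested genes. The WT and mutant values of all 10 genes overlapped in both media, where 16.8% of all tested genes did not overlap in naïve cells and 22.4% in primed cells. Same-numbered naïve libraries deviated together, which neither this overlap nor the main fit takes into account. Within these pairs Dusp4 and Fos were lower in WT each time, Dusp6, Spred1 and Etv5 higher each time, and the other genes mixed or tied. The share of all genes with such an order was not taken. With the replicate number as a block, none of the 10 was called in naïve cells. Limma-voom on the recovered reads also called none of the 10.

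In naïve cells the largest differences, WT minus mutant, were those of the phosphatases, and they had opposite signs. Dusp4 was at -0.56 (95% interval -1.17 to 0.05, limma adjusted p = 0.404) and Dusp6 at 0.46 (-0.003 to 0.92, adjusted p = 0.379), followed by Etv5 at 0.33 (-0.02 to 0.68, adjusted p = 0.395). Fgf4 had the narrowest interval, -0.33 to 0.24 around -0.05, and Egr1 the widest, -1.18 to 0.91 around -0.13. In primed cells Egr1 differed most, at 0.47 (-0.58 to 1.51, adjusted p = 0.664), and Spry4 was at 0.33 (-0.09 to 0.76, adjusted p = 0.426). Of the 10 differences in primed cells 9 were above 0, with a median of 0.20 beside 0.01 over all genes, and in naïve cells 5 were above 0. Of all tested genes 51.3% were above 0 in primed cells and 50.4% in naïve cells. The 10 genes were measured in the same libraries, so their signs are not independent. Etv4 was the gene below 0 in primed cells, at -0.08, and it stood at 0.066 without primed mutant replicate 2, which also took Fgf4 to -0.0010. Egr1 stood at -0.041 without primed mutant replicate 3. In naïve cells Egr1 stood at 0.11 without naïve WT replicate 3, and at 0.016 and 0.031 without naïve mutant replicates 1 and 3. With intervals of this width, like levels in the 2 lines were not shown.

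**Figure D4:**
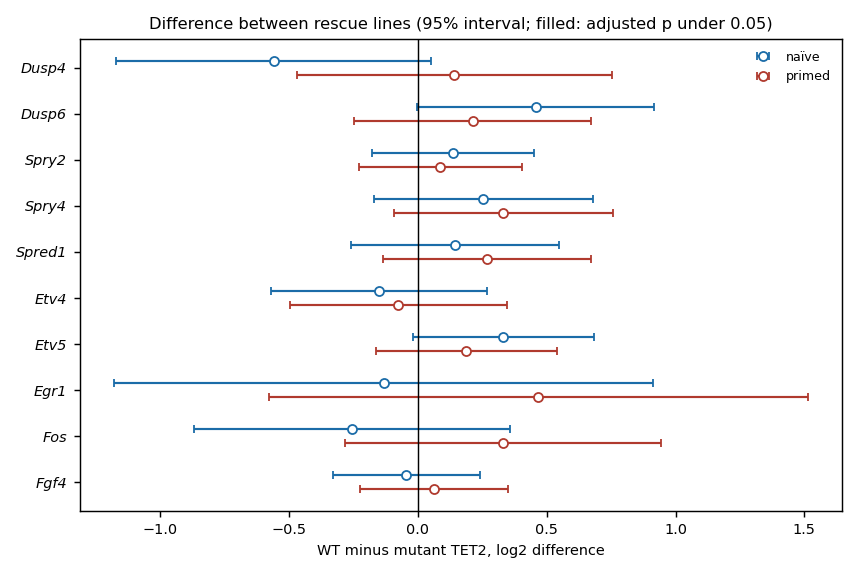
WT minus mutant TET2 difference of each gene on the deposited log2 scale (horizontal axis) in naïve (blue) and primed (red) cells, with 95% intervals; open points have an adjusted p of 0.05 or more. All 20 points are open and every interval includes 0, the widest being those of Egr1.

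The response to the medium was also compared between the lines, as the difference of the naïve minus primed differences, WT minus mutant. None of the 10 genes was called, nor was any other tested gene (0% of 14185), and at an unadjusted p under 0.05 the list had 0 genes and all tested genes had 489 (3.45%). Dusp4 had the largest value, -0.70 (95% interval -1.56 to 0.16, limma adjusted p = 0.976), then Egr1 with -0.60 (-2.08 to 0.88) and Fos with -0.59. For Spry4, Etv4 and Spry2 the values were -0.08, -0.07 and 0.05, with intervals of -0.68 to 0.52, -0.67 to 0.52 and -0.40 to 0.50.

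Genes of the list also varied between libraries of the same medium. Correlations of 5 pairs were taken over the 6 libraries of each medium, 10 in all. Permutations ran across both lines. The adjustment ran over all 10, naïve correlations included, although their own p-values are not used below. An adjusted p in primed cells thus rests in part on them, and an adjustment over the primed correlations alone was not run. Fos and Egr1 moved together in primed cells (r = 0.907, exact permutation p = 0.00833, adjusted 0.0278; rho = 0.771, permutation p = 0.103, adjusted 0.333), a relation that passed by Pearson's r and not by Spearman's rho. Its r was 0.941 without the 2 libraries farthest from the median of Fos, and 0.912 with each gene centred on the mean of its rescue line. Replicate 3 was the lowest of its group for both genes in both primed groups. The 6 libraries may therefore not be independent for this pair, which the permutation p does not allow for and which can make it too small. Dusp4 and Dusp6 had r = 0.831 in primed cells (permutation p = 0.0542, adjusted 0.135), and -0.130 without the 2 farthest libraries. The other 3 pairs in primed cells did not pass either.

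In naïve cells the WT and mutant libraries of the same number deviated together, so the 6 libraries are not independent and their correlations are given as descriptions with no p. Dusp4 and Dusp6 ran against each other (r = -0.917, rho = -0.886), with r = -0.834 without the 2 farthest libraries and -0.904 with each gene centred on its line. This rests on few reads too. Dusp4 held 2 to 25 per naïve WT library and 27 to 44 per naïve mutant library, and Dusp6 held 7 to 21 and 2 to 16. Dusp6 and Spry4 had r = 0.886 and 0.856 when centred, which rests on 5 reads of Spry4 in all. Fos and Egr1, both with few reads in naïve cells, had r = 0.271 and 0.232 when centred.

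**Figure D5:**
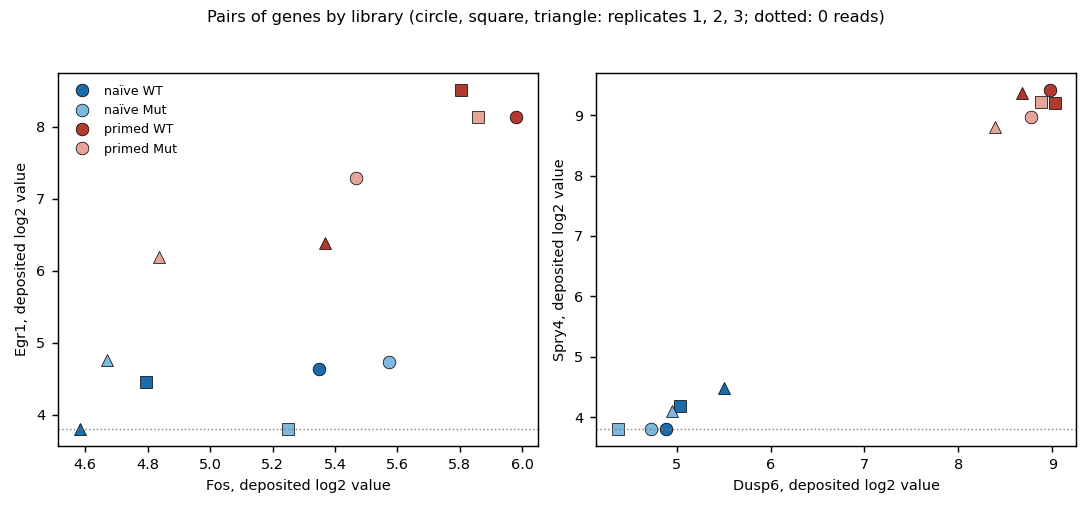
Egr1 against Fos (left) and Spry4 against Dusp6 (right), deposited log2 values, 1 point per library; colours are the 4 groups, and circles, squares and triangles are replicates 1, 2 and 3. In primed cells the replicate 3 triangles have the lowest Egr1 and Fos of their groups, and in the right panel naïve and primed libraries form separate clouds.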

How the data were processed

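The authors trimmed the reads with Trim Galore 0.3.3, aligned them to mm9 with TopHat2 2.0.9, counted them over genes and deposited log2 values from the variance-stabilising transformation of DESeq2, per the labels and the study's methods. Because that transformation can be inverted, each deposited log2 value was turned back into a read count. All values (100%) came out whole within 1e-06, and dividing by the size factor of each library gave normalised reads. Libraries held 8066662 to 21335933 such reads. A deposited table of repeats was not used here.

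Genes with a mean at least 1 above the lowest value (3.81) were tested, 14185 of 26061. A limma 3.58.1 model (R 4.3.3) with an intensity trend was fitted on the 4 groups of 3 libraries, with Benjamini-Hochberg adjustment over all tested genes and a threshold of 0.05. The contrasts were naïve minus primed in each line, WT minus mutant in each medium, and the difference of the former between lines. Test code was checked on simulated data. Counts of reads in a pair of groups were compared with an exact interval that covers counting error only, since reads are not independent molecules. Correlations in primed cells had exact permutation tests (SciPy 1.17.1, two-sided, adjusted over 10 correlations), and figures were drawn with matplotlib 3.10.9.

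Same-numbered replicates were checked for pairing by the correlation of their deviations from the group means. In naïve cells the WT and mutant libraries of the same number deviated together (r = 0.586, 0.300 and 0.385), so these pairs count as paired from the data and not from the labels. In the other group pairs r was not positive for all 3 numbers, and they were not counted as paired. It was 0.161, -0.0652 and 0.189 between primed WT and primed mutant, and 0.22, 0.145 and -0.0162 between naïve and primed WT. Between naïve and primed mutant it was -0.0467, -0.146 and -0.0791. Alternatives were another filter, no trend, other scalings, the replicate number as a block, voom weights on recovered counts, the libraries of the contrast alone, a call rule with a difference over 1, and each library left out. Leaving out replicate 3 of both groups was added after seeing the data.

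The 10 genes and all lists were chosen with earlier results of these data known. Named were all 10 genes, up to 4 genes per pathway list with the largest mean absolute difference among those called in the same direction in both lines, the check lists by counts and ranges, and the 5 genes nearest in profile to Dusp6 and to Egr1. Gene positions are from GENCODE vM1 on mm9.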

Additional observations from a re-analysis of the deposited data

How the results depend on the processing

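Dusp4, Dusp6, Spry2, Spry4, Spred1, Etv4 and Egr1 kept direction and call between media in both lines under every alternative run that could test them, except that Spry2 stayed under a difference of 1 where one was required. The calls of Etv5, Fos and Fgf4 depended on single libraries and on the processing. With no filter the WT calls of Etv5 (limma adjusted p = 0.0515) and Fos (0.0522) were lost. With no trend the WT call of Etv5 (0.0568) and the mutant call of Fgf4 (0.0537) were lost, the latter also with the libraries of the contrast alone (0.110). Under the stricter filter, which tested 5 of the 10 genes, 4 were called in the WT line, 5 in the mutant line and 4 lower in both, because Dusp4, Spry4, Etv4, Egr1 and Fos were no longer tested. With a difference over 1 required, 6 of the 10 genes were called in each line, and 1745 of the tested genes were called in the WT line and 1636 in the mutant line, against 5095 and 4993. Low reads limit Spry4, Etv4 and Egr1 in naïve cells and Fos in all: limma-voom on the recovered reads gave -8.73 and -9.70 for Spry4, -7.20 and -6.74 for Etv4 and -6.14 and -5.31 for Egr1.

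Between lines, no alternative called any of the 10 genes, while the called genes among all tested moved in naïve cells from 14 to 5 under the stricter filter, to 9 with no filter or with the naïve libraries alone, and to 5 to 14 without single libraries. In primed cells they moved from 36 to 23 under the stricter filter, to 18 with the primed libraries alone, and to 12 to 82 without single libraries (82 without mutant replicate 3). Without replicate 3 of both lines they were 6 and 13.

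The replicate block left 8 called genes in each line between media (Etv5 and Fgf4 were lost) and 7 lower in both, and 0 between lines in either medium. It moved the called genes among all tested to 36 in naïve cells and to 209 in primed cells, and left the comparison of responses at 0. The primed libraries of the same number were not counted as paired, though r was positive for numbers 1 and 3 (0.161 and 0.189). Single libraries left out gave 7 to 8 called genes in the WT line, 7 to 9 in the mutant line and 7 to 8 lower in both, and without replicate 3 of both media 7, 9 and 7.

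Signs turned only in differences that no test called, and the cause was not tested. Fos in the mutant line ranged from -0.50 to 0.024 over single libraries left out. Between lines, Egr1 ranged from -0.44 to 0.11 in naïve and from -0.041 to 1.11 in primed cells, and Etv4 from -0.29 to 0.066 and Fgf4 from -0.0010 to 0.13 in primed cells. Egr1 in naïve cells was at 0.28 without replicate 3 of both lines, and Etv4 at 0.025 with quantile normalization.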

Other observations

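Profiles over all 12 libraries were compared, each centred on its own mean, by the root mean square distance between log2 values. The genes nearest to Dusp6 were the zinc transporter gene Slc39a14 at 0.263, the gap junction gene Gja1 at 0.299, the splicing regulator gene Esrp1 at 0.299, Etv4 at 0.334 and Id3, an inhibitor of bHLH factors, at 0.364. Gja1 held 147 normalised reads on average in naïve WT and 2739 in primed WT cells, and Id3 46.0 and 574. Etv4 was the only one of the 10 genes among these 5. Egr1 had more distant neighbours, Lgals9 at 0.497, Ap1m2 at 0.525, Car4 at 0.541, Slc40a1 at 0.562 and Nav2 at 0.586, and Fos was not among them. These distances mostly follow the difference between media, which the libraries share.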
